A study of Mus musculus with 18 samples.

Results

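Hippocampal RNA of male C57BL/6 mice exposed to urban particulate matter for 8 to 20 weeks was compared with that of mice exposed for 3 to 7 days. The comparison used 7 of the 18 libraries of the series, chosen by the tissue and exposure time in their labels. The 4 libraries of 8, 12, 16 and 20 weeks formed one side and the 3 libraries of 3, 5 and 7 days the other, and every difference is 8–20 weeks minus 3–7 days. All 7 groups of mice were 7 weeks old at the start and received the reference urban dust SRM 1648a, suspended in PBS, through the nose. Mice of the 8–20-week groups were dosed 2 times per week, and mice of the 3–7-day groups once daily. Each library was made from RNA pooled over the mice of its group, and the labels do not give the number of mice in a pool. Libraries of different times therefore stood in for replicates within each side, and p-values measure the spread between these pooled libraries. A hippocampal library of mice given PBS, whose duration the labels do not give, and a library of 3 weeks of exposure were kept outside the test and read beside it. The mice of both were also 7 weeks old at the start, and those of the 3-week group were dosed 2 times per week. The count columns of the 8–20-week and control libraries had names that begin with a number, and those of the 3–7-day and 3-week libraries names that begin with a letter. Duration of exposure, dosing rhythm, total dose, age and this difference in column names coincide between the sides, so their parts in any difference cannot be told apart.

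The hippocampus is the brain region that lays down new spatial and episodic memories, and its granule and pyramidal neurons are among the cells studied after inhaled or instilled particles. Particles placed in the nose can act on the brain through the olfactory route, through blood or through inflammation elsewhere. The libraries were made with a 3′ mRNA kit, in which an oligo-dT primer starts cDNA synthesis at a poly(A) tail or at another run of A bases, so that 1 read stands for 1 priming event near the 3′ end of a transcript. Most messenger RNAs are exported and translated, whereas many long non-coding RNAs, such as Malat1 and Meg3, stay in the nucleus. BC1, from the gene Bc1, is a small RNA of rodent neurons made by RNA polymerase III and carried into dendrites, where it restrains translation. Its gene is the master copy from which the ID repeats of rodent genomes descend.

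Total counts ran between 7513555 and 8081031 in the 8–20-week libraries and between 5434067 and 7365546 in the 3–7-day libraries. A single count was worth 0.113 to 0.127 CPM (counts as a share of the library's total, scaled by the trimmed mean of M-values) at 8–20 weeks and 0.152 to 0.195 CPM at 3–7 days. Rn45s, the precursor of ribosomal RNA, took 8.85 to 11.5% of counts at 8–20 weeks and 14.8 to 18.5% at 3–7 days. After every library was thinned to the lowest total without Rn45s, 4.63 M counts, 16644 to 16912 genes were detected at 8–20 weeks and 14642 to 14929 at 3–7 days. The tissue label was borne out by some markers of hippocampal neurons. Of 23 such markers 8 were higher in all 7 hippocampal libraries than in cortex and 0 were lower. Of 22 cortical neuron markers 4 were lower in all 7 and 0 were higher. Prox1, a transcription factor of granule cells, had 14.5 to 27.5 CPM in the 7 hippocampal libraries and 1.33 to 6.23 CPM in the 7 cortical libraries of the same times, and Dsp, a junction protein of granule cells, had 22.6 to 56.2 CPM in hippocampus and 0 to 1.32 CPM in cortex. Several libraries stood apart in genes of neighbouring structures or of liver. Genes of the choroid plexus were high in the 3-day library, and Shox2, a thalamic transcription factor, reached 37.3 CPM in the 8-week library. Col1a1, a fibrillar collagen of the meninges, reached 189 CPM in the 20-week library, and Alb, the serum albumin gene of liver, reached 316 CPM in the 16-week library. Mup2 and Serpina1e also stood apart at 16 weeks, with 109 and 77.6 CPM. The PBS library had 37.6 CPM of Alb, 22.7 of Mup2 and 22.2 of Serpina1e. No pair of the 9 hippocampal libraries differed by as little as sampling noise.

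Of 13861 genes tested, 2254 passed an adjusted p of 0.05 in the edgeR quasi-likelihood test with Benjamini-Hochberg adjustment, which is 16.3% of the genes tested. In 8–20-week hippocampus 1102 genes (7.95%) were higher and 1152 (8.31%) were lower than at 3–7 days. The changes were of unequal size. The median log2 difference was 1.04 among the higher genes and -0.59 among the lower genes, and 577 genes were at least 2-fold higher against 108 at least 2-fold lower. Many of the large rises lay among scarce transcripts: of the genes averaging at least 20 CPM, 119 were at least 2-fold higher and 58 at least 2-fold lower, and 38 of the higher genes had no count in any of the 3–7-day libraries. The 2 groups did not overlap for 2162 genes in the higher direction (15.6% of those tested) and 1916 in the lower (13.8%).

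The split into higher and lower depended on scaling. The median over all genes was 0.02 on the log2 scale, with 48.9% of the called genes higher, whereas scaling to total counts alone gave a median of 0.24 and 2653 called genes, 84.6% of them higher. Leaving out the 8-, 12-, 16- or 20-week library left 1421, 1440, 1331 or 1379 called genes. Adding the 3-week library to the 8–20-week side left 38. Adding it to the 3–7-day side, an alternative chosen after seeing the data, gave 2479.

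**Figure D1:**
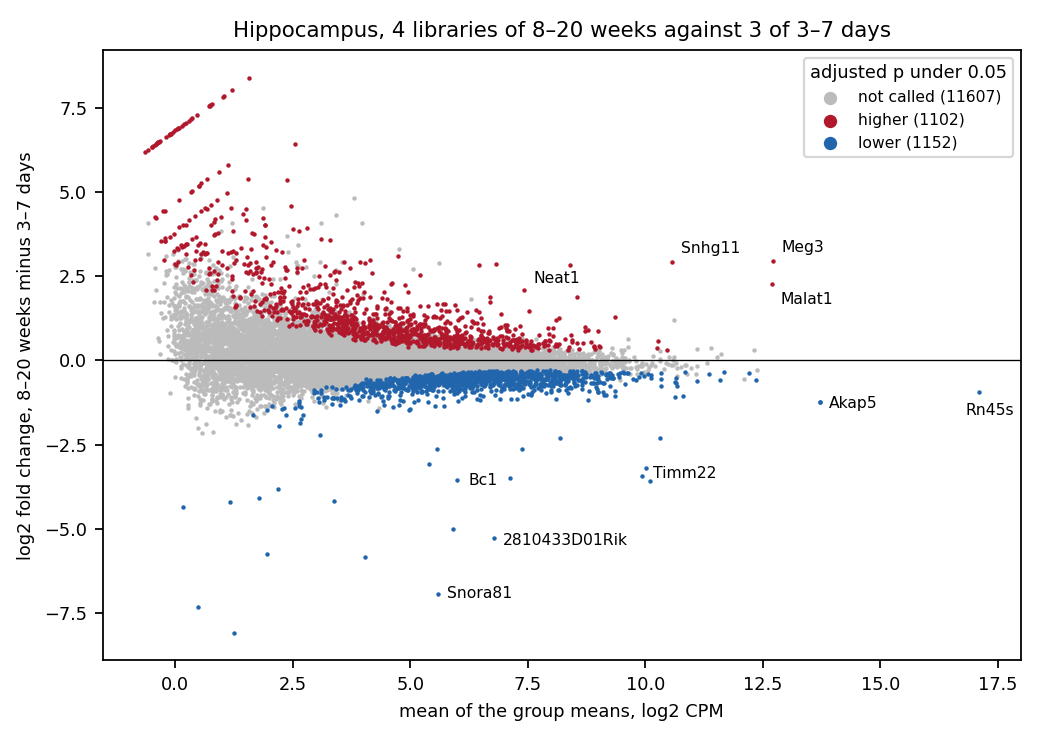
Each point is 1 of the 13861 tested genes, with the log2 of its mean CPM over the 2 groups on the x axis and its log2 difference, 8–20 weeks minus 3–7 days, on the y axis. Genes that passed the test are red where higher and blue where lower; rises were larger among scarce genes, Meg3, Malat1 and Snhg11 stand out at high levels, and Bc1, 2810433D01Rik and Snora81 lie far below 0. The straight rows of points at the upper left are genes with no or few counts at 3–7 days.

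The largest falls gathered on Bc1, on transcripts that carry a stretch of its sequence and on small nuclear and nucleolar RNAs. Of the 12 largest falls among genes averaging at least 20 CPM, 1 was Bc1 itself and 7 others held at least 20 consecutive bases of it in an annotated transcript; none of the 12 largest rises did. The sequence of Bc1 is shown because these 7 falls share parts of it, and it is read from the GENCODE M21 transcripts (GRCm38, mm10). The gene lies at chr7:144914470-144914637 on the plus strand. Capitals mark the 27 bases, from base 47 to base 73, that are the longest shared stretch of Ccdc36, Timm22, Kif3a and Dennd4a, and a run of 23 A bases follows the first 76 bases.
Bc1: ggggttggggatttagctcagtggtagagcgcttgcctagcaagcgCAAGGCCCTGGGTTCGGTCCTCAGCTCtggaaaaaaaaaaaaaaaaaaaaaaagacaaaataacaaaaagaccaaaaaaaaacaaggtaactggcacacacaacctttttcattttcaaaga

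Bc1 had 8.46, 10.3, 9.22 and 11.7 CPM at 8, 12, 16 and 20 weeks, against 142, 127 and 84 CPM at 3, 5 and 7 days. The groups did not overlap, and the log2 difference was -3.57 ± 0.19 (SE; edgeR adjusted p = 3.167e-06). The 3-week library had 114 CPM and the PBS library 9.68 CPM, each within the range of the libraries with the same style of column name.

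Of the 4 genes whose longest shared stretch is the capitalised 27 bases, 3 fell and 1 did not pass the test. Ccdc36, a meiotic chromosome protein gene also known as Iho1, had 142, 192, 137 and 213 CPM at 8–20 weeks against 2040, 2190 and 1870 CPM at 3–7 days. Timm22, a subunit of the mitochondrial inner membrane import channel, had 141, 189, 135 and 195 CPM against 1780, 1940 and 1610 CPM. Kif3a, a kinesin motor of cilia and axons named here after its values were seen, had 390, 446, 397 and 491 CPM against 2130, 2300 and 1940 CPM. Ccdc36 lies on chromosome 9 and the other 2 far apart on chromosome 11, yet in each the 12- and 20-week libraries were above those of 8 and 16 weeks. The log2 differences were -3.57 for Ccdc36, -3.43 for Timm22 and -2.30 for Kif3a, with no overlap between groups in any of them. Dennd4a, a regulator of membrane traffic, averaged 29.4 CPM at 8–20 weeks and 28.2 CPM at 3–7 days, with overlapping groups and a log2 difference of 0.06 (edgeR adjusted p = 0.868). Xrn1, an RNA exonuclease that holds bases 46 to 75 on the opposite strand, was higher, by 0.76. In a table of counts by gene symbol, reads from these genes and reads from other copies of the shared stretch cannot be told apart.

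Longer matches lay at the beginning of Bc1. The non-coding transcript 2810433D01Rik shares bases 1 to 39 and had 6.54, 5.85, 4.3 and 4.96 CPM at 8–20 weeks against 250, 263 and 127 CPM at 3–7 days, a log2 difference of -5.29. Pex13, a peroxisomal import protein, shares bases 1 to 36 and had 24.8, 23.1, 22.9 and 20.8 CPM against 317, 291 and 161 CPM. In both genes the 7-day library held the lowest of the 3 early values, as it did for Bc1. Ppp1r15b, the constitutive phosphatase subunit that reverses the stress block on translation, holds bases 5 to 44 on the opposite strand and had 50.7, 46.2, 46.4 and 40.3 CPM against 315, 356 and 187 CPM. Gm12596 and 9830132P13Rik, both non-coding, hold 28 and 24 bases on the opposite strand, with 3.38, 4.83, 3.07 and 3.18 CPM against 134, 134 and 80.7 CPM for Gm12596 and a log2 difference of -3.07 for 9830132P13Rik.

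The pair with the most counts was Akap5, which anchors protein kinase A at synapses, and Lrrc17, a secreted leucine-rich repeat protein, both named after their values were seen. Akap5 holds 76 bases of Bc1 on the opposite strand and Lrrc17 72 bases on the same strand. The genes lie on chromosomes 12 and 5, yet the ratio of Akap5 to Lrrc17 counts stayed between 0.990 and 1.01 in all 7 libraries. Akap5 had 7490, 8550, 6750 and 9400 CPM at 8–20 weeks and 22100, 22500 and 11600 CPM at 3–7 days, and the log2 difference was -1.22 ± 0.21 (edgeR adjusted p = 0.0041). Its level was far above that of Bc1, and near-equal counts of unlinked genes leave the value of either gene as a gene uncertain.

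Across the genome the pattern covered some copies and not others. Of 13331 tested genes with a GENCODE transcript, 34 besides Bc1 hold at least 20 of the 76 bases before the A run. Of these, 13 were lower (38.2%), 3 were higher and 18 did not pass the test, and 8 were at least 4-fold lower; the median log2 difference was -0.22. Among the 13296 genes without such a stretch, 8.27% were lower, the median was 0.02 and 13 were at least 4-fold lower. The same strand held 8 lower genes of 18 and the opposite strand 5 of 16. Match length did not order the differences: Elp6 with 67 bases, Tatdn1 with 57, Cnot3 with 45 and Sez6 with 43 did not pass the test, and Sez6, a seizure-related membrane protein, differed by 0.04. The 3 higher genes were Kif15, Xrn1 and Sltm. These genes were found by a search made after the values were seen, and the strand on which reads were counted is not stated.

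**Figure D2:**
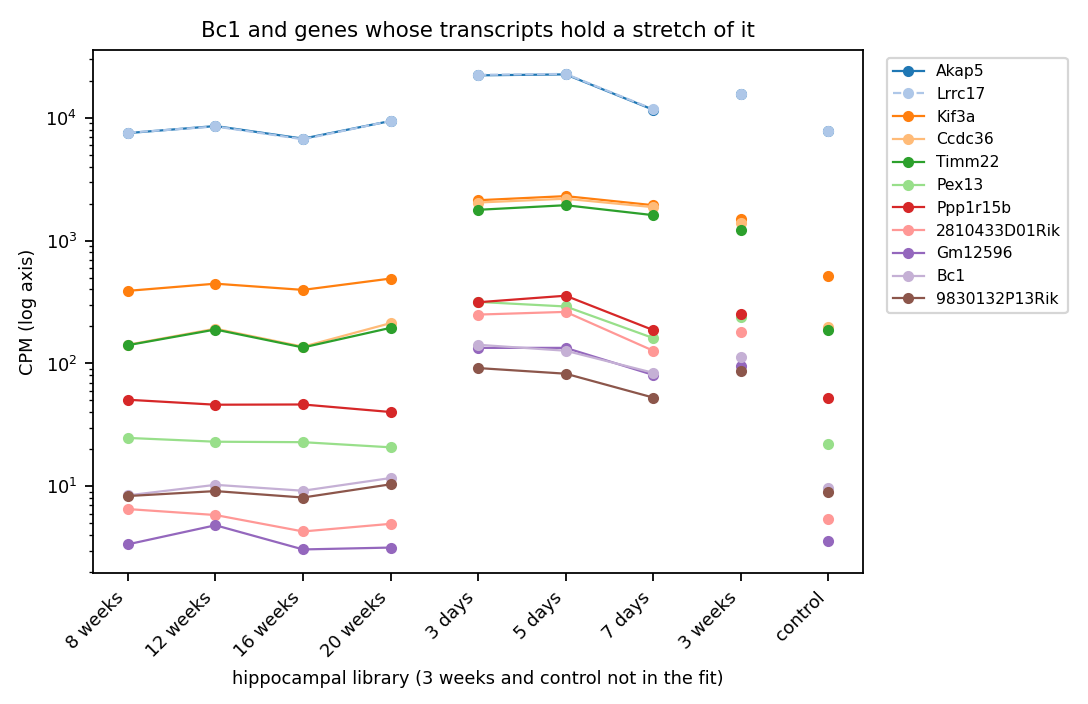
Levels in CPM (log axis) of Bc1 and of 10 genes that hold a stretch of it, by library, with 8–20 weeks left of 3–7 days and the 3-week and PBS (control) libraries beside them; lines join libraries of a group. In Ccdc36, Timm22, Pex13 and 2810433D01Rik the 8–20-week and PBS libraries lie well below the 3–7-day and 3-week libraries.

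Of 14 tested small or ribosomal RNAs, which in general carry no long poly(A) tail, 9 fell, 1 rose and 4 did not pass the test. The sequences of 5 small nucleolar RNAs, GENCODE M21 transcripts, are shown as examples, among them the 1 that rose. They are not ranked by size of difference: Rnu11, not shown, fell by more on the log2 scale (-5.77) than Snord89 (-2.65). Capitals mark the box motifs that a search of the ends found: TGATGA within the first 25 bases and CTGA within the last 25 for box C/D small nucleolar RNAs, and ACA within the last 10 bases for Snora30. None was found in Snora81 as annotated.
Snora81: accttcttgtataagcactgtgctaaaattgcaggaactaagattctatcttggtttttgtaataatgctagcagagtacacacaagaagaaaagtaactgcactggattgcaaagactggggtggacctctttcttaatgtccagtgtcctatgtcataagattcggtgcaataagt
Snora30: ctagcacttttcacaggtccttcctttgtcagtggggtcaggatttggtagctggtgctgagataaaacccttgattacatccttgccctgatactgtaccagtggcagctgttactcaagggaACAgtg
Snord49b: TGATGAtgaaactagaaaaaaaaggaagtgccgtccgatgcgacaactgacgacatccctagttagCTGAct
Snord89: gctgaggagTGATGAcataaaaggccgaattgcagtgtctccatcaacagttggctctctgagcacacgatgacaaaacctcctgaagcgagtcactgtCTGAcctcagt
AF357425: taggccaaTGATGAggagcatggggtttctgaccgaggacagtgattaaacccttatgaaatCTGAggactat

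Snora81, a box H/ACA small nucleolar RNA that guides pseudouridylation, lies inside the translation factor gene Eif4a2 at chr16:23110756-23110933. It had 3, 5, 3 and 14 counts at 8–20 weeks against 486, 405 and 763 counts at 3–7 days, a log2 difference of -6.93 ± 0.35 (edgeR adjusted p = 1.781e-06). The 3-week library had 913 counts and the PBS library 2. Eif4a2 itself had 204, 195, 193 and 190 CPM against 323, 322 and 345 CPM, a much smaller fall of 0.76 on the log2 scale.

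Snord49b, a box C/D RNA that guides ribose methylation, had 9, 5, 1 and 3 counts at 8–20 weeks against 206, 156 and 185 counts at 3–7 days. Snora30 had 11, 8, 4 and 12 counts against 65, 64 and 226 counts. Snord89 had 107, 133, 109 and 81 counts against 358, 399 and 670 counts. In all 3 the groups were fully separate, and in Snora30 and Snord89 the 7-day library was the highest. The same direction held for Rnu11, the U11 RNA of the minor spliceosome, with 0, 0, 1 and 3 counts against 28, 65 and 33, and for Rpph1, the RNA subunit of ribonuclease P, with 1, 2, 2 and 2 counts against 20, 32 and 19.

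The 1 small RNA that rose was AF357425, an imprinted box C/D small nucleolar RNA named after its values were seen. It lies at chr12:109636012-109636084, within the host transcript Rian of the Meg3 imprinted cluster. It had 75, 76, 88 and 92 counts at 8–20 weeks against 0, 0 and 4 counts at 3–7 days, with 23 counts at 3 weeks and 80 in the PBS library (log2 difference 5.36 ± 0.67, edgeR adjusted p = 0.00084). Rian had 161, 154, 152 and 140 CPM against 156, 199 and 146 CPM, with overlapping groups, and did not pass the test. Of the 4 small RNAs that did not pass, AF357355 is a small nucleolar RNA at chr12:109654627-109654697, also within Rian. It had 8, 10, 20 and 37 counts at 8–20 weeks against 2, 3 and 0 counts at 3–7 days, which did not overlap (log2 difference 2.87 ± 0.98, edgeR adjusted p = 0.0710). Snord104 had 30, 16, 33 and 21 counts against 18, 17 and 14 counts, and its groups overlapped, as did those of the other two.

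Long nuclear RNAs made up the largest rises among well-expressed genes. Of 14 tested RNAs in the list of nuclear and long non-coding RNAs, which was written with these results known, 6 rose and 2 fell, with a median log2 difference of 0.55 against 0.02 over all genes. Meg3, the maternally expressed tumour suppressor RNA at chr12:109541001-109571726, had 11000, 11600, 11700 and 13000 CPM at 8–20 weeks against 2100, 1320 and 1200 CPM at 3–7 days (log2 difference 2.95 ± 0.20, edgeR adjusted p = 1.491e-05). Malat1, the abundant RNA of nuclear speckles at chr19:5795690-5802672, had 11000, 10600, 10900 and 11200 CPM against 1970, 2750 and 2080 CPM. Each 8–20-week library held several times the level of each 3–7-day library. The PBS library had 11800 CPM of Meg3 and 10700 of Malat1, and the 3-week library 2270 and 2030 CPM.

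Miat, a nuclear RNA of neurons, had 171, 208, 190 and 222 CPM at 8–20 weeks against 30.4, 25.9 and 25.1 CPM at 3–7 days. Snhg11, a neuronal small nucleolar RNA host gene, had 2380, 2590, 2930 and 2890 CPM against 427, 355 and 292 CPM. Kcnq1ot1, the antisense RNA that silences a paternal imprinted domain, had 552, 513, 589 and 698 CPM against 112, 69.7 and 65.8 CPM. The log2 differences of these 3 lay between 2.84 and 2.91, close to that of Meg3. Kcnq1ot1 overlaps Kcnq1 on the other strand, and without a stated strand setting the reads of the pair cannot be told apart.

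Neat1, the scaffold RNA of paraspeckles, had 255, 314, 320 and 227 CPM at 8–20 weeks against 55.6, 74 and 66.7 CPM at 3–7 days (log2 difference 2.09 ± 0.15). It was picked after its values were seen, because its PBS library, at 106 CPM, lay well below all 4 exposed libraries of the same column style. The 2 members that fell were Gas5 and Pantr1. Gas5, a growth-arrest RNA that hosts small nucleolar RNAs, had 153, 168, 167 and 165 CPM against 200, 216 and 223 CPM. Peg13, Snhg14 and Dlx6os1 did not pass the test, so the list did not move as one.

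The other large rises were uncharacterised transcripts and a few protein-coding genes. 9530091C08Rik led with 43.1, 35.9, 62.7 and 48.7 CPM at 8–20 weeks against 6.03, 4.28 and 6.24 CPM at 3–7 days, a log2 difference of 3.10. 5031426D15Rik, A330076H08Rik and A930013F10Rik rose by 2.82, 2.59 and 2.53. Cep70, a centrosomal protein, had 40.4, 36.1, 39.8 and 46 CPM against 6.98, 8.18 and 9.29 CPM, and Dennd6b, a regulator of endosome traffic, rose by 2.28. Over all 504 tested long non-coding RNAs 17.5% were higher and 3.77% lower, while over 12777 protein-coding genes 7.44% were higher and 8.44% lower.

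**Figure D3:**
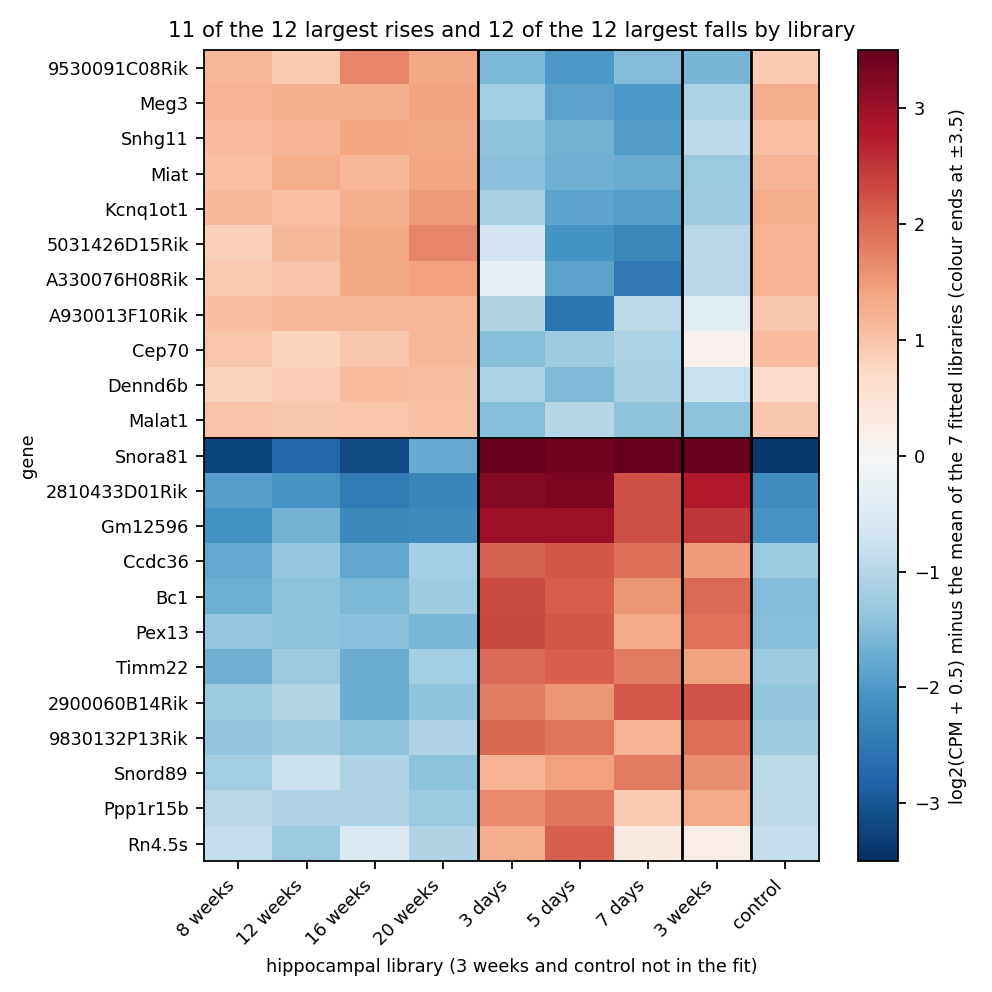
The genes with the largest rises and falls in rows and the hippocampal libraries in columns, with 8–20 weeks left of 3–7 days; colour is log2 CPM minus the mean of the 7 fitted libraries, and the colour scale ends at ±3.5. The PBS library resembles the 8–20-week columns and the 3-week library the 3–7-day columns in nearly every row.

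Genes of the ribosome and of oxidative phosphorylation were lower together at 8–20 weeks. Of 79 cytosolic ribosomal protein genes, 56 fell and none rose, with a median log2 difference of -0.54 against 0.02 over all genes. Rps21, a small-subunit protein, had 101, 108, 121 and 109 CPM at 8–20 weeks against 233, 217 and 230 CPM at 3–7 days (log2 difference -1.05 ± 0.09, edgeR adjusted p = 0.00012). Rplp2, a protein of the ribosomal stalk, had 184, 189, 173 and 174 CPM against 334, 349 and 311 CPM. The separation was wide and the spread within groups small in both. Under scaling to total counts alone 35 of the 79 fell. None fell when the 3-week library was added to the 8–20-week side.

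Mitochondrial energy genes moved in the same direction. Of 37 subunits of complex I, the NADH dehydrogenase, 27 fell and none rose, with a median of -0.47, and 16 fell without the 16-week or without the 20-week library. Of 25 subunits of complexes II to IV, 20 fell (median -0.56), and of 18 subunits of ATP synthase, 16 fell (median -0.52). Ndufa12, an accessory subunit of complex I, had 133, 129, 127 and 115 CPM against 229, 287 and 245 CPM. Uqcr11, of complex III, had 73.1, 75.3, 76.5 and 68.4 CPM against 133, 134 and 147 CPM. Atp5e, of ATP synthase, had 123, 115, 120 and 121 CPM against 249, 236 and 236 CPM (edgeR adjusted p = 6.996e-05). With total counts alone, the numbers that fell were 11, 13 and 7 in these lists.

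The other lists of protein supply also held members that fell. Among 77 mitochondrial ribosomal proteins, 14 fell with a median of -0.26, and 8, 9 or 8 fell without the 8-, 16- or 20-week library. Of 37 translation factors 14 fell, among them Eif4a2 and Tpt1, a translationally controlled growth protein, and of 33 proteasome subunits 12 fell, with 5 left without the 16-week and 6 without the 20-week library. Psmc5, a proteasome ATPase, was the single subunit that rose, with 77.4, 86.2, 86.5 and 80.7 CPM at 8–20 weeks against 46.9, 54.3 and 47.4 CPM at 3–7 days. Of 22 genes of folding and stress in the endoplasmic reticulum 9 fell and none rose. Pdia4, a disulfide isomerase, had 26.3, 28, 28.7 and 20.5 CPM against 62, 79 and 56 CPM, and Manf, a stress-induced secreted factor, had 32.7, 27.7, 40.7 and 32.5 CPM against 67.7, 60.9 and 58.6 CPM. Of 24 heat shock chaperones 7 fell, Dnajb6 and Hsp90aa1 with the smallest p. The medians of the folding and heat shock lists were -0.21 each, and 0.02 and 0.01 under total counts alone, where all genes had 0.24.

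Cytoskeletal genes fell in part. Of 28 actin genes and actin-filament regulators 13 fell and none rose (median -0.45), with 8 left without the 16-week library. Pfn1, profilin, which feeds actin monomers to growing filaments, had 21.9, 16.7, 14.8 and 14.4 CPM at 8–20 weeks against 37.7, 51.4 and 50.4 CPM at 3–7 days. Tmsb4x, thymosin β, which binds actin monomers, had 1310, 1440, 925 and 933 CPM against 2250, 2580 and 2420 CPM. Of 26 tubulin and microtubule genes 10 fell and 3 rose, and the fallen numbered 4, 5, 3, 6 and 6 without the 12-week, 16-week, 20-week, 5-day and 7-day library. Dync1h1, the heavy chain of cytoplasmic dynein and a very long transcript, was among the 3 that rose, with 563, 579, 577 and 530 CPM against 338, 245 and 256 CPM.

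Among synaptic genes and ion channels most members did not pass the test. Of 30 postsynaptic density genes 10 fell and 1 rose (median -0.21, and 0.02 under total counts alone, where all genes had 0.24), with 6 left without the 8-week, 20-week or 7-day library. Dlg4, the scaffold PSD-95 of excitatory synapses, had 329, 370, 389 and 375 CPM at 8–20 weeks against 754, 750 and 747 CPM at 3–7 days (log2 difference -1.04 ± 0.09, edgeR adjusted p = 9.517e-05). Ppp1r9b, the spine protein spinophilin, had 202, 203, 196 and 204 CPM against 352, 321 and 432 CPM. The 3-week library had 646 CPM of Dlg4 and the PBS library 400 CPM. Camk2a, the main kinase of excitatory synapses, had 3020, 3520, 3810 and 4000 CPM against 4710, 4140 and 6760 CPM and did not pass the test.

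Among ion channels, 6 of 27 sodium, calcium and HCN channel genes rose and 1 fell, with a median of 0.17. Cacna1d, an L-type calcium channel, had 59.7, 64.7, 76 and 82.8 CPM at 8–20 weeks against 38.3, 37.6 and 38.7 CPM at 3–7 days. Cacna1g, a T-type calcium channel, had 42.3, 35.9, 36.8 and 27.1 CPM against 17.3, 8.57 and 12.9 CPM. Of 35 potassium channels 4 rose and 1 fell (14.3% called, against 16.3% of all genes tested). Of 34 glutamate and GABA receptor genes 3 rose and 3 fell (17.6% called, against 16.3% of all genes tested). Grin2a, an NMDA receptor subunit, rose to 10, 10.4, 10.7 and 12.1 CPM against 4.34, 2.34 and 3.35 CPM. Gabra5, the extrasynaptic GABA receptor subunit of hippocampus, fell to 114, 137, 92.9 and 103 CPM against 177, 178 and 264 CPM. Of 39 synaptic vesicle genes 6 rose, with 3 left without the 12-week or without the 16-week library, and 4 fell. Of 26 immediate early genes, which neuronal activity induces, 2 rose and none fell, with a median of -0.05. The 2 that rose are 7.69% of the list, near the 7.95% of all genes tested. Npas4, an activity-dependent transcription factor, had 3.04, 3.18, 9.22 and 7.12 CPM at 8–20 weeks against 0, 1.36 and 1.37 CPM at 3–7 days (log2 difference 2.58 ± 0.77, edgeR adjusted p = 0.0439). Klf4, a zinc-finger transcription factor, had 17.6, 17.5, 15.9 and 13.2 CPM against 5.84, 6.42 and 11.1 CPM (edgeR adjusted p = 0.0258). The adjusted p of Npas4 was 0.0573 to 0.135 when any single library but that of 3 days was left out, and that of Klf4 was 0.0524 to 0.0729 without the 8-, 12- or 16-week or the 3- or 5-day library. Arc and Bdnf did not pass the test.

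The calls among splicing factors and large chromatin regulators lay mainly on the higher side, and most members of both lists did not pass the test. Of 46 splicing factors 18 rose and 3 fell, with a median of 0.20. Pnisr, a speckle protein with serine- and arginine-rich repeats, had 543, 555, 608 and 667 CPM at 8–20 weeks against 185, 133 and 160 CPM at 3–7 days (log2 difference 1.90 ± 0.13, edgeR adjusted p = 1.915e-05). Srrm2, a scaffold of nuclear speckles, had 840, 949, 933 and 992 CPM against 398, 386 and 357 CPM. Of 38 large chromatin and transcription regulators 15 rose and none fell, with a median of 0.31. Kmt2a, a histone methyltransferase, had 328, 404, 398 and 407 CPM against 202, 145 and 155 CPM, and Med12, of the Mediator kinase module, had 14.1, 17.2, 18 and 17.3 CPM against 4.15, 3.89 and 6.09 CPM. With total counts alone 28 members of each of these lists rose.

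Genes of the basement membrane, blood vessels and cilia rose in smaller numbers. Of 36 collagens and laminins 11 rose and 1 fell, with a median of 1.43. Col4a1 and Col4a2, the collagen chains of the vascular basement membrane, shared the change. Col4a1 had 41.7, 37.4, 32 and 39.4 CPM at 8–20 weeks against 18.9, 13.8 and 20.2 CPM at 3–7 days, and Col4a2 had 29.9, 28.6, 26.2 and 32.8 CPM against 8.3, 7.01 and 13.4 CPM. Col1a1, at 24.2, 8.65, 8.98 and 189 CPM against 15.1, 6.62 and 4.87 CPM, did not pass the test, and its mean rested on the 20-week library. Of 25 endothelial and barrier genes 5 rose and none fell (2, 3 and 3 without the 8-, 16- and 20-week library). Eng, a co-receptor for transforming growth factor β, had 14, 10.6, 16.4 and 13.5 CPM against 5.28, 5.06 and 6.09 CPM. In a bulk sample, more cells of a type and more RNA per cell cannot be told apart.

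Vegfa, the vascular growth factor, had 53, 47.9, 56.9 and 62.6 CPM at 8–20 weeks against 24.5, 23.2 and 24.1 CPM at 3–7 days (log2 difference 1.20 ± 0.14, edgeR adjusted p = 0.00048). Its 3-week library had 34.1 CPM and its PBS library 47.9 CPM. Of 18 ependymal and ciliated-cell genes 5 rose and none fell (median 0.89), and 3 rose without the 8-week, 16-week, 20-week or 7-day library. Ak7, an adenylate kinase of cilia, had 4.85, 5.21, 4.06 and 3.43 CPM against 0, 0.195 and 0.609 CPM, while Foxj1, the master regulator of motile cilia, had 14.2, 13.5, 11.4 and 11.4 CPM against 7.16, 7.4 and 9.44 CPM and did not pass the test.

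Choroid plexus genes moved with single libraries. None of 20 passed the test, and the median was 0.24. Ttr, transthyretin, had 2460, 1820, 4660 and 3190 CPM at 8–20 weeks and 6770, 199 and 20.7 CPM at 3, 5 and 7 days, with 295 CPM at 3 weeks and 31.8 CPM in the PBS library. The summed level of the 20 genes ran from 2714 to 6231 CPM at 8–20 weeks and from 217 to 9038 CPM at 3–7 days, the 3-day library being the highest of all. Without the 3-day library 18 of the 20 were higher at 8–20 weeks, with a median of 3.80, and without the 5-day or the 7-day library the median was -0.20 or -0.14. The part of this structure in the rises of ependymal and basement membrane genes was not tested.

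**Figure D4:**
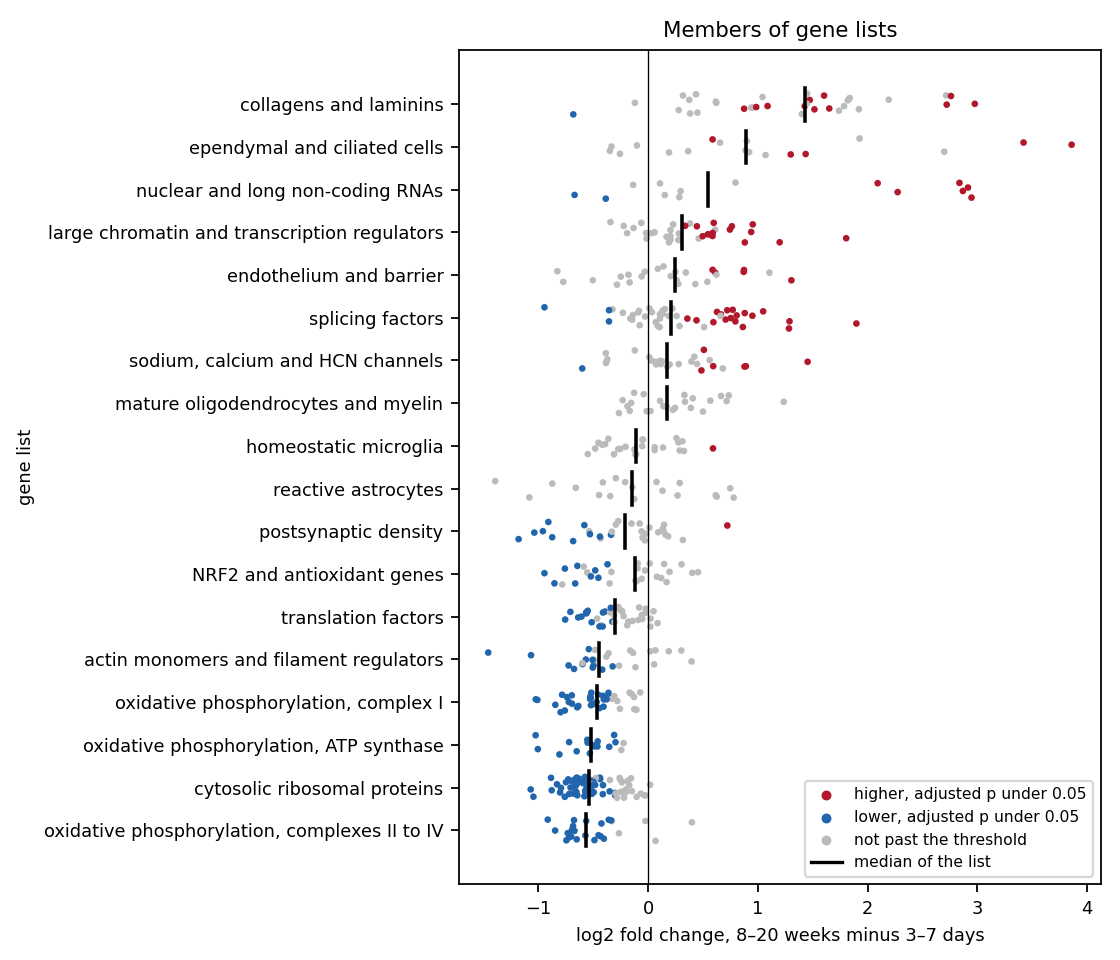
Each point is a tested member of a gene list (rows) at its log2 difference, 8–20 weeks minus 3–7 days; red members passed the test as higher, blue as lower, and the black bar is the median of the list. Ribosomal protein and oxidative phosphorylation genes lie almost wholly left of 0, and the red points gather in the matrix, chromatin and splicing rows.

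Several marker lists of neurons and glia gave no calls, and in the others most members did not pass the test. Of 23 hippocampal neuron markers 3 fell (13%, against 8.31% of all genes tested) and none rose (median -0.35). The mean log2 level of this list overlapped between the groups and was highest in the 7-day library, at 0.373. Without that library Bok and Neurod6, among the 3 that fell, lost the call (edgeR adjusted p = 0.0903 and 0.0985), as they did without several others. None of 22 cortical neuron markers, 25 myelin genes, 19 oligodendrocyte precursor genes or 19 reactive astrocyte genes passed the edgeR test. Mbp, the main myelin basic protein gene, had 3000, 2220, 2100 and 906 CPM at 8–20 weeks and 2130, 2800 and 2010 CPM at 3–7 days. Gfap, the filament of reactive astrocytes, had 179, 132, 138 and 125 CPM against 111, 198 and 167 CPM. Both sets of values overlapped. Of 22 astrocyte genes 3 fell and 2 rose (22.7% called, against 16.3% of all genes tested). Glul, which recycles glutamate to glutamine, was among those that fell, with 1290, 1300, 1240 and 1170 CPM against 1900, 2210 and 1820 CPM. Of 21 genes of immature neurons and neurogenesis 1 rose and 2 fell (14.3% called), with a median of -0.20 (0.02 under total counts alone). Hopx, a marker of neural stem cells and astrocytes, fell to 39.6, 34.7, 25.2 and 31.1 CPM against 83, 60.6 and 70.6 CPM (edgeR adjusted p = 0.0019), and Tubb3, a neuronal tubulin, fell by 0.45 on the log2 scale. Dcx, a marker of immature neurons, was the member that rose, with 26.8, 27.7, 33.9 and 34.9 CPM against 14.3, 22.4 and 14.5 CPM; its adjusted p was 0.0164, and 0.0528, 0.0536 or 0.0508 without the 16-week, 20-week or 7-day library.

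Among genes tied to responses to particles some fell, and the classical targets with values given below did not pass the test. Of 29 tested NRF2 and antioxidant genes 9 fell and none rose, with a median of -0.12 (0.10 under total counts alone, where all genes had 0.24). Gstm5, a glutathione transferase, had 141, 131, 134 and 118 CPM at 8–20 weeks against 272, 202 and 283 CPM at 3–7 days, and Prdx5, a mitochondrial peroxiredoxin, had 66.4, 73.4, 61.1 and 57.9 CPM against 115, 109 and 127 CPM. Nqo1, a classical NRF2 target, had 3.27, 2.42, 1.6 and 3.56 CPM against 5.84, 1.56 and 6.55 CPM and did not pass the test. Cyp1b1, which the aryl hydrocarbon receptor induces, ranged from 0.738 to 3.27 CPM against 0 to 3.89 CPM. Nqo1 and Cyp1b1 were scarce, and Hmox1, another member of the NRF2 list, had too few counts to be tested. Of 15 aryl hydrocarbon receptor pathway genes 8 were tested. The metallothionein genes Mt1 and Mt2, which heavy metals induce, had 692, 628, 536 and 478 CPM against 649, 743 and 565 CPM for Mt1 and 427, 347, 235 and 236 CPM against 411, 606 and 383 CPM for Mt2. Neither passed the test.

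Of 25 homeostatic microglia genes 1 rose (4%, against 7.95% of all genes tested) and none fell, with a median of -0.11. The member that rose was Csf1r, the receptor that microglia need to survive. It had 106, 118, 114 and 120 CPM at 8–20 weeks against 85.8, 69.9 and 72.5 CPM at 3–7 days. Of 17 activated microglia genes 2 rose and 2 fell (23.5% called, against 16.3% of all genes tested). Of 21 interferon response genes 2 rose (9.52%, against 7.95% of all genes tested). Ifih1, a sensor of double-stranded RNA, had 3.38, 3.81, 3.57 and 2.41 CPM against 0.377, 0 and 0.305 CPM. Its level was low in every library. Of 15 inflammatory signalling genes 1 rose and 1 fell (13.3% called, against 16.3% of all genes tested). Cxcl12, a chemokine, rose to 54.8, 61.7, 55.1 and 61.9 CPM against 27.9, 45.4 and 21.8 CPM; its adjusted p was 0.0190, and 0.0526 or 0.0518 without the 12-week or 20-week library. Nfkb2, a subunit of the non-canonical NF-κB pathway, fell to 302, 334, 497 and 383 CPM against 816, 566 and 925 CPM. Its log2 difference in cortex was 0.23 (edgeR adjusted p = 0.420). The difference between tissues, -1.26, did not pass the edgeR interaction test (adjusted p = 0.0796). Of 17 complement genes 2 rose (11.8%, against 7.95% of all genes tested). None of 21 clock genes or 24 cholesterol synthesis genes passed the edgeR test.

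The direction of change moved with transcript length. Over 13331 genes with an annotated transcript, split by length into 10 equal bins, the shortest bin (70 to 1394 bases) had 3.9% of its genes higher and 20.6% lower, and the longest bin (6946 to 123179 bases) had 17.8% higher and 3.3% lower. The median log2 difference ran from -0.24 in the shortest bin to 0.20 in the longest. Genes that rose had a median transcript length of 4355 bases and 13 exons, genes that fell 2555 bases and 5 exons, and all tested genes 3439 bases and 8 exons. The ribosomal protein and oxidative phosphorylation genes are mostly short, and the chromatin regulators long; the part of length in their differences was not tested.

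**Figure D5:**
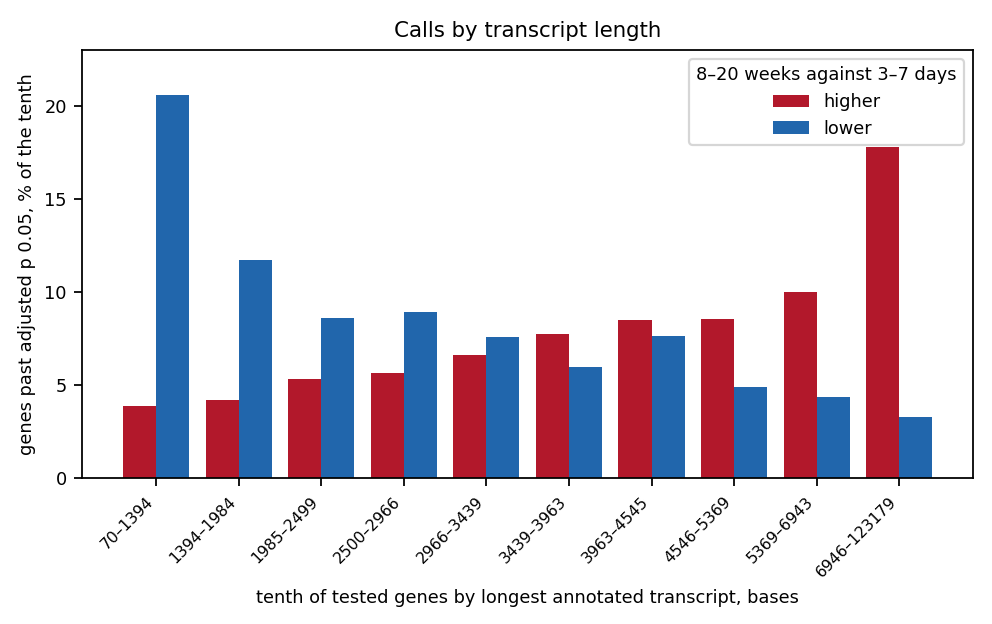
Percentage of genes higher and lower at 8–20 weeks than at 3–7 days by bin of transcript length, from the shortest to the longest. The lower share falls from 20.6% to 3.3% and the higher share climbs from 3.9% to 17.8%.

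Of the 1102 higher genes, the PBS library was above the 3-week library in 990 (89.8%), against 49.3% of all tested genes, and of the 1152 lower genes in 98 (8.51%). In cortex, of which no library entered the hippocampal test, PBS lay above 3 weeks for 92.8% of the higher genes and 7.38% of the lower ones. The first principal component of the 9 hippocampal libraries, with 50.1% of the variance, placed the 8–20-week libraries between -19.4 and -14.3 and the PBS library at -13.2, and the 3–7-day libraries between 18.5 and 22.7 with the 3-week library at 18.8. The median over genes of the absolute log2 difference between 2 libraries was 0.138 to 0.160 between an 8–20-week library and the PBS library, and 0.290 to 0.349 between an 8–20-week and a 3–7-day library. The PBS library stood with the late exposures and the 3-week library with the early ones, in step with the names of their columns. Exposure and set of libraries cannot be told apart here.

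A smaller group of genes lay beyond the PBS library as well. In 320 of the 1102 higher genes (29.0%) all 4 libraries of 8–20 weeks lay above the 3–7-day, 3-week and PBS libraries. The pattern needs groups that do not overlap, so its share of all tested genes, 4.37%, is not a like base. Of the 2162 tested genes without overlap in the higher direction, called or not, 606 showed it. Their share is close to that among the called higher genes. In 429 of the 1152 lower genes (37.2%) all 4 lay below those 5 libraries, as did 4.62% of all tested genes. Of the 1916 tested genes without overlap in the lower direction, 640 showed this, a share not far below that among the called lower genes. The calls rest on the same 7 libraries, so only the place of the 3-week and PBS libraries is added by these counts. The genes named next were chosen after their values were seen, for the widest gap. Neat1 led the higher side, followed by Trpm3, a heat-sensing channel, with 44.2, 32.7, 48 and 43.3 CPM at 8–20 weeks against 21.5, 16.9 and 17.8 CPM at 3–7 days, 13.3 CPM at 3 weeks and 21 CPM in the PBS library. Trpm3 is also abundant in choroid plexus, and its part in this gap was not tested.

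On the lower side, among the genes with the widest gaps, Cnr1, the cannabinoid receptor of presynaptic terminals, had 57.1, 66.1, 52.1 and 58.8 CPM at 8–20 weeks against 86.7, 94 and 114 CPM at 3–7 days, 95.2 CPM at 3 weeks and 84.8 CPM in the PBS library. Dynll1, a dynein light chain, had 235, 256, 239 and 257 CPM against 329, 385 and 454 CPM, 375 CPM at 3 weeks and 333 CPM with PBS. For both genes the PBS library sat with or just under the early libraries, unlike for Bc1 or Meg3. With a single PBS library, whether exposed mice of 8–20 weeks differ from untreated mice was not tested.

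The hippocampal and cortical changes were then compared in a model of 14 libraries with an interaction of tissue and period. Of 14351 genes tested, 4 differed between tissues (0.0279%), 3 upward in hippocampus and 1 downward, and 1707 had an unadjusted p under 0.05. DESeq2 called 204 and limma-voom 2. In the same model 2974 genes changed in hippocampus and 2703 in cortex. Leaving out the 8-week or 12-week hippocampal library, or any of the 4 cortical libraries of 8–20 weeks, left 0 edgeR calls, leaving out the 20-week hippocampal library left 1, and leaving out the 3-, 5- or 7-day hippocampal library gave 99, 19 or 15. Leaving out the 16-week hippocampal library or the 5-day cortical library gave 6 or 8.

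Rnase4, a secreted ribonuclease, had 23.7, 24.9, 26.2 and 20.8 CPM in hippocampus at 8–20 weeks against 13.8, 14.7 and 12.6 CPM at 3–7 days, and in cortex 14.2, 14.3, 15.2 and 12.9 CPM against 20.6, 21.4 and 25.9 CPM. It rose in one tissue where its values were lower in the other, and the difference of the log2 changes was 1.48 ± 0.21 (edgeR adjusted p = 0.0307). Pdgfc, a growth factor for mesenchymal cells, had 4.82, 4.33, 5.81 and 5.46 CPM in hippocampus against 1.12, 0.191 and 1.05 CPM, and 3.34, 3.92, 3.82 and 4 CPM in cortex against 5.75, 6.25 and 5.43 CPM. Zbtb7a, a transcriptional repressor, had 226, 205, 260 and 200 CPM in hippocampus against 259, 281 and 249 CPM, and 337, 334, 343 and 333 CPM in cortex against 232, 210 and 199 CPM, a difference of -0.89 ± 0.14. CPM in these sentences were scaled over the 14 libraries.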

How the data were processed

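Counts were analysed as the authors deposited them: whole-number counts per gene symbol, 1 column per library, without normalization. Per the labels' protocols, pooled total RNA was made into libraries with the QuantSeq 3′ mRNA-Seq kit and sequenced as single-end reads of 75 bases; the submitters' processing notes name Bowtie2, bedtools, edgeR and mm10, and strand, multiple hits and annotation are not given in the sources used here. Groups came from the tissue, treatment and time in the labels. Members and gene lists were chosen with earlier results of these data known.

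In R 4.3.3, edgeR 4.0.16 (trimmed mean of M-values, filterByExpr, quasi-likelihood F test, Benjamini-Hochberg adjustment over all genes tested, threshold 0.05) compared the 4 libraries of 8–20 weeks with the 3 of 3–7 days, and tested the interaction with tissue over 14 libraries. The tests were tried on simulated data with 200 changed genes. DESeq2 1.42.0, limma 3.58.1 with voom, other scalings, filters, thinning and left-out libraries were alternatives. Named genes are the 12 largest rises and falls with a mean of at least 20 CPM and no overlap, the 2 members of each list with the smallest p, key genes, and the 4 tissue differences with the smallest p in each direction; others are named as picked later. Some genes that meet these rules are not reported here. Annotation and sequences came from GENCODE M21, matched by symbol. Totals of 5434067 to 8081031 counts mean that 3 counts equal 0.338 to 0.584 CPM. In 2 files 27 symbols each had been turned into dates and were restored from the row order that all deposited files share.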

Additional observations from a re-analysis of the deposited data

Results flagged for a closer look

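Of 81 values checked across the 4 libraries of 8–20 weeks, 7 had 1 library whose gap to the nearest other exceeded Dixon's 95% critical value for 4 samples; chance flags about 1 in 20. For 6 gene lists the value is the mean log2 level of the list's genes in that library. The 8-week library was the lowest for the nuclear and long non-coding RNAs, at 0.403, and for the postsynaptic density, at -0.237, and the highest for thalamus and habenula genes, at 1.18, where Shox2 had 37.3 CPM at 8 weeks and 1.78, 2.34 and 4.96 CPM at 12, 16 and 20 weeks. It also had the highest total count, 8.08 M counts. The 20-week library was the highest for homeostatic microglia, at 0.0774, and for splicing factors, at 0.204, and the 16-week library was the highest for circadian clock genes, at 0.217.

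Another 3 results stood out because the log2 change in hippocampus minus that in cortex passed the edgeR interaction test: 3.27 for Pdgfc, 1.48 for Rnase4 and -0.89 for Zbtb7a.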

How the results depend on the processing

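The number of called genes stayed within 1.5 times of 2254 under DESeq2, limma-voom, other size factors, other filters, thinning, removal of Rn45s and the fit of 14 libraries. Total counts alone gave 2245 higher and 408 lower. Requiring a fold above 1.5 left 278 (214 higher, 64 lower), and adding the 3-week library to the 8–20-week side left 38 (29 higher, 9 lower). With 1 library left out, the calls ran from 1331 to 2691 (654 to 1422 higher, 677 to 1269 lower). For the difference between tissues, against 4, DESeq2 called 204, limma-voom 2 and no filter on low counts 15, and with 1 library left out 0 to 99. Of 152 named called genes none reversed, 14 stayed called under every alternative that gave a value, and 23 lost the call with 1 library left out. No paired analysis was possible because the labels give no shared replicate numbers to the early and late hippocampal libraries. For the tissue difference, a block by time point, which 1 hippocampal and 1 cortical library share and which was chosen after seeing the data, left 0 edgeR calls (1741 genes at an unadjusted p under 0.05). The labels do not say that both tissues came from the same mice; deviations from the group means correlated by -0.0316 to 0.185 within time points, and 4 of 7 hippocampal libraries correlated best with the cortical library of their own time. The causes of these shifts were not tested. At 5434067 counts, genes near 0.584 CPM or below are not measurable one by one.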

Other observations

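Some further genes are given here, a few of them foreign to brain or at the edge of detection. Prm1, Tnp1, Cd74 and Scrg1 were named after their values were seen. Prm1 and Tnp1, which pack the chromatin of sperm, were both listed at 0 in the 4 libraries of 8–20 weeks. At 3, 5 and 7 days Prm1 had 17, 40 and 22 counts and Tnp1 had 13, 15 and 20 counts, with 3 and 11 counts at 3 weeks and 0 in the PBS library. Cd74, the invariant chain of antigen presentation, had 20, 12, 28 and 30 counts at 8–20 weeks against 0, 0 and 5 at 3–7 days; its edgeR adjusted p was 0.0431, and 0.0663 to 0.106 without the 3-, 5-day or any 8–20-week library. S100a9, a neutrophil gene, had 10.2 CPM in the 20-week library and 19.3 CPM in the 5-day library, and no more than 1.6 CPM in the other 5. It did not pass the test (edgeR adjusted p = 0.649). Scrg1, a gene of glia responsive to prion infection, fell to 30.4, 31.8, 23.1 and 33.5 CPM at 8–20 weeks against 82.8, 81.4 and 62.9 CPM at 3–7 days. Kitl, the ligand of the KIT receptor, rose to 34.8, 22, 32.8 and 44.5 CPM against 13.2, 11.1 and 9.59 CPM, and its PBS and 3-week libraries both lay among the later ones, at 31.1 and 30.3 CPM.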
